A study of Mus musculus with 8 samples.

Results

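The miR-17-92 cluster is a polycistronic miRNA gene, 1 primary transcript that carries the hairpins of miR-17, miR-18a, miR-19a, miR-20a, miR-19b-1 and miR-92a-1. Its probes were compared in LSK cells of mouse bone marrow, sorted by the phenotype Lin-cKit+Sca1+ and known to include the blood stem cells and the progenitors closest to them. Members were chosen by name alone: every probe whose name, without species, arm, copy number and form, read mmu-mir-17, mmu-mir-18, mmu-mir-19a, mmu-mir-19b, mmu-mir-20 or mmu-mir-92 (with or without the letter a for the last member and for 18 and 20). This gave 9 of 433 names (13 of 521 probes) in the table of mature probes, and 7 of 274 names (7 of 300 probes) in the table of precursor probes, which had none for miR-17. The arrays of 2 groups of 4 mice were compared, 1 array per mouse and each a biological replicate per the series' design text, where the sample titles say KO LSK for Tsc1 cKO and WT LSK for Ctrl. Tsc1 cKO mice were Tsc1f/f,Mx1-Cre+ and Ctrl mice were their Tsc1f/f,Mx1-Cre- littermates. All were C57BL/6 females 10 weeks old, and all had 7 intraperitoneal injections of 400 µg of pIpC (2 mg/ml), so Ctrl mice were exposed to pIpC too. The last injection preceded cell sorting by 10 days. Mx1-Cre is driven by an interferon-responsive promoter that pIpC switches on and that is active in many cell types. Ctrl mice lack Cre, so an effect of Cre itself and one of the deletion cannot be told apart. The series' design text also speaks of conditional Raptor alleles, whereas Tsc1 is the sole conditional allele in the genotype labels, which set the groups here.

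Tsc1 is part of the complex that restrains mTORC1, a kinase complex through which cells adjust growth to nutrient supply. By its title, the study asked about mTORC1 in the making of miRNAs. The nuclear enzyme Drosha cuts the hairpins of the cluster out of the shared transcript, Dicer then cuts each hairpin, and 1 arm is kept as the mature miRNA. Myc and E2F factors are known to raise transcription of the cluster. In mouse blood cells it supports proliferation and survival, is needed for B cell development, and is a known oncogene in lymphoma. Among its known targets is Bcl2l11, which encodes the pro-apoptotic protein Bim. Members made from 1 transcript can come to differ in abundance through cutting, arm choice or decay.

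The members carry 5 different seeds, 1 of them that of miR-17-3p, and the mature sequences are shown because the members with signal all had 1 of 2 seeds. Seeds, bases 2 to 8 from the 5′ end and the main determinant of target choice, are in capitals. Sequences and positions are those of RefSeq on GRCm38.p6, where all 8 hairpins of the probe names were matched. Probe names without an arm were set beside the arm usually reported as dominant, which the files do not state.
miR-17-5p: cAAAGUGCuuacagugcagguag
miR-20a-5p: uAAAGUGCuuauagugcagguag
miR-18a-5p: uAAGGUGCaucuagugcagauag
miR-19a-3p: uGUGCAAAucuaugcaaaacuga
miR-19b-3p: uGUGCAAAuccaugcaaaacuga
miR-92a-3p: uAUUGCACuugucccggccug
miR-17-3p: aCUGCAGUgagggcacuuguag
The seed of miR-17-5p and miR-20a-5p is held by 7 of 1679 mouse mature names (0.417%), that of miR-92a-3p by 6 (0.357%), and those of miR-18a-5p and of both miR-19 members by 2 each (0.119%). Counted from 1 at the 5′ end, miR-20a-5p differs from miR-17-5p by the substitutions C1U and C12U. miR-19b-3p differs from miR-19a-3p by U11C alone. miR-18a-5p differs from miR-17-5p by 6 substitutions, 1 of which, A4G, lies in the seed.

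On chromosome 14 the 6 hairpins lie within 836 bases on the plus strand (chr14:115043671-115044506, GRCm38.p6). In the RefSeq annotation the host transcript Mir17hg starts at position 115044390. Thus 4 of the 6 hairpins lie upstream of its annotated start, that of miR-19b-1 spans it and that of miR-92a-1 lies inside. The annotation therefore does not cover the whole cluster, and where the transcript starts in these cells was not tested. The probes miR-19b-2 and miR-92-2 are named for copies that belong to the paralogous miR-106a-363 cluster on the X chromosome (chrX:52741838-52742066 on the minus strand). They met the naming rule and are reported with the others.

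Array-wide levels set how far the members can be read. Values are log2 intensities, and the background of an array is the most frequent log2 value over both tables. It corresponded to an intensity of 31983 to 32996 on arrays 1 and 2 of both groups and of 23988 to 25355 on arrays 3 and 4, so values within these sets of arrays are given beside the pooled ones. Names whose 8-array mean exceeded background by more than 1 log2 unit, a factor of 2, are called bright, and 96 mature and 35 precursor names were. Tsc1 cKO 4 stood apart with 74 mature names above that level, against 94 to 113 on the other 7 arrays. The labels give scanner 4000B for 6 arrays, 4001B for Tsc1 cKO 3 and 4002B for Tsc1 cKO 4. Of 14 names for miRNAs enriched in stem and progenitor cells 5 were bright (among them miR-126-5p, miR-130a and miR-155), and of 10 names found throughout blood cells 7. Among the stem and progenitor names that were not bright were those of miR-125b, miR-100, miR-196b and let-7e. The names miR-126-3p and miR-126*-5p were not bright either, so the names of miR-126 disagreed. Of names enriched in mature lineages, 2 of 3 myeloid names (miR-21 and miR-223) and 3 of 5 lymphoid names (miR-150 and both for miR-181a-5p) were bright. Of these, miR-223, miR-150 and both names for miR-181a-5p also count among the 7 bright names found throughout blood cells. Bright too were 0 of 3 erythroid names and 1 of 23 for other tissues (miR-375). The part of mature cells in these samples was not tested. Fewer cells of a type and less RNA per cell cannot be told apart in such bulk samples.

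Mature signal of the cluster was carried by 4 of its 9 names, miR-17-5p, miR-20a, miR-92-1 and miR-92-2, and the other 5 lay at background. The same 4 names stood above background by more than 1 log2 unit on each of the 8 arrays. Of the other 5 names only miR-19b-2 on Tsc1 cKO 2 did so, at 1.18. With thresholds of 0.5 and 2 log2 units in the mean of all arrays, 4 names were bright as well. In the order of the hairpins along the transcript, bright and background mature names alternated. The names miR-17-5p, miR-20a and the last, miR-92-1, were bright, while miR-18, miR-19a and miR-19b-1 between them were not. As both copies of miR-92a yield 1 mature sequence, signal of the miR-92-1 probe cannot be assigned to the chromosome 14 hairpin. Levels of different probes cannot be compared, so a name at background does not show that its miRNA was absent. Whether the mature probes also read hairpins or the primary transcript was not tested.

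**Figure D1:**
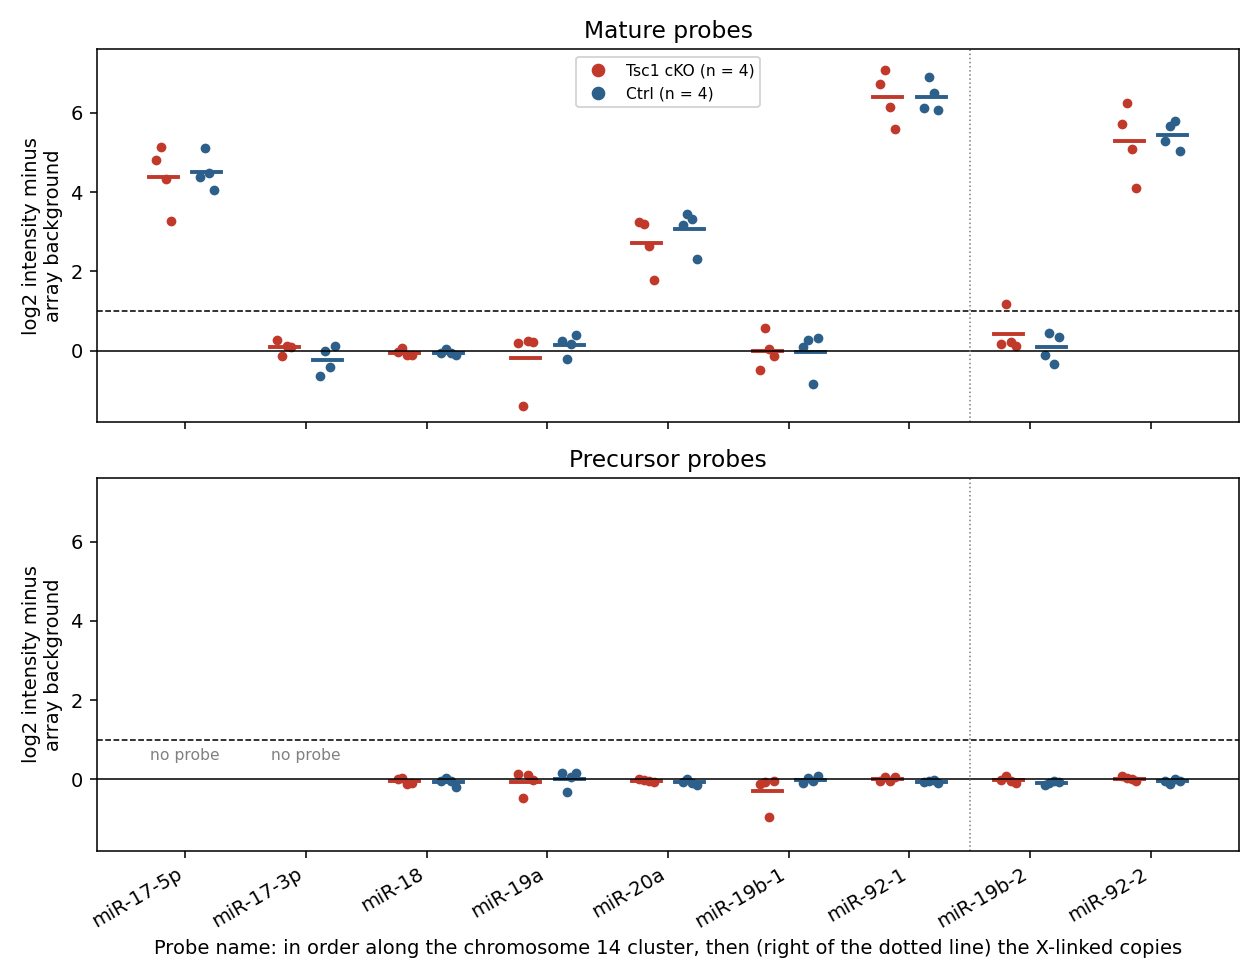
Log2 intensity minus the background of the array (y axis) for each member name (x axis), in order along the chromosome 14 cluster and then the X-linked copies, for mature (top) and precursor probes (bottom). Points are mice (Tsc1 cKO red and left, Ctrl blue and right, n = 4 each), bars are means, the solid line is background and the dashed line 1 log2 unit above it. Mature miR-17-5p, miR-20a, miR-92-1 and miR-92-2 stand above the dashed line on all arrays, and every precursor point lies below it.

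The miR-17 seed family is known for targets among cell cycle inhibitors and Bcl2l11. miR-17-5p stood 4.82, 5.13, 4.34 and 3.27 log2 units above background in Tsc1 cKO mice 1 to 4, against 4.38, 5.11, 4.48 and 4.06 in Ctrl mice 1 to 4. Tsc1 cKO 4 was the lowest of all 8 arrays, and the groups overlapped. As deposited, its log2 intensity was 19.17 ± 1.03 in Tsc1 cKO and 19.32 ± 0.60 in Ctrl mice (SD, n = 4 each), a log2 fold change of -0.15 (SE 0.49, 95% interval -1.24 to 0.94). miR-17-5p was spotted as 3 probes, which differed little on an array. Their SD was between 0.011 and 0.086 log2 units, far under the SD between mice of either group, and the 3 probes gave fold changes of -0.14, -0.14 and -0.17.

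miR-20a, of the same seed, stood 3.24, 3.20, 2.63 and 1.77 log2 units above background in Tsc1 cKO mice 1 to 4, against 3.18, 3.44, 3.33 and 2.30 in Ctrl mice 1 to 4. Array 4 was the lowest of its group in both cases, and the groups overlapped. Its log2 intensity was 17.49 ± 0.90 in Tsc1 cKO and 17.88 ± 0.66 in Ctrl mice (SD, n = 4 each). The log2 fold change of -0.38 (SE 0.46, 95% interval -1.41 to 0.65) was the lowest of the 9 mature names.

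miR-92a belongs to a seed family shared with miR-25 and miR-363 and is known in mouse for targets among pro-apoptotic and integrin genes. The miR-92-1 probe stood 6.72, 7.09, 6.16 and 5.60 log2 units above background in Tsc1 cKO mice 1 to 4, against 6.13, 6.90, 6.50 and 6.08 in Ctrl mice 1 to 4. On Tsc1 cKO 2 its intensity of 4509941 was the highest mature value of that array. No array held more than 1 probe at its highest value, so a shared ceiling was not seen. The log2 fold change of miR-92-1 was -0.03 (SE 0.43, 95% interval -0.98 to 0.91).

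The miR-92-2 probe stood 5.73, 6.26, 5.09 and 4.10 log2 units above background in Tsc1 cKO mice 1 to 4, against 5.30, 5.67, 5.79 and 5.03 in Ctrl mice 1 to 4. Tsc1 cKO mice held both the highest and the lowest value, and the Ctrl mice lay between. Its log2 fold change was -0.17 (SE 0.50, 95% interval -1.30 to 0.95).

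No member passed the test between Tsc1 cKO and Ctrl LSK cells. limma called 0 of the 9 mature members at a Benjamini-Hochberg adjusted p under 0.05 (adjusted p of 1 for each of them), as it called 0% of all 433 names. At unadjusted p under 0.05 it gave 0 of the 9, where the share over all names was 4.39%. The groups overlapped for all 9, and did not overlap for 0.924% of all names. Log2 fold changes were below 0 for all 4 bright members (median -0.16) and for 80.2% of the 96 bright names (median -0.24). Of the 9 members 7 were below 0, with a median of -0.03, against 64.9% and a median of -0.04 over all names. The standard errors of the 4 bright members, 0.43 to 0.50, were larger than each of their fold changes, and the intervals span about 1 log2 unit or more below 0 and 0.65 or more above it.

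**Figure D2:**
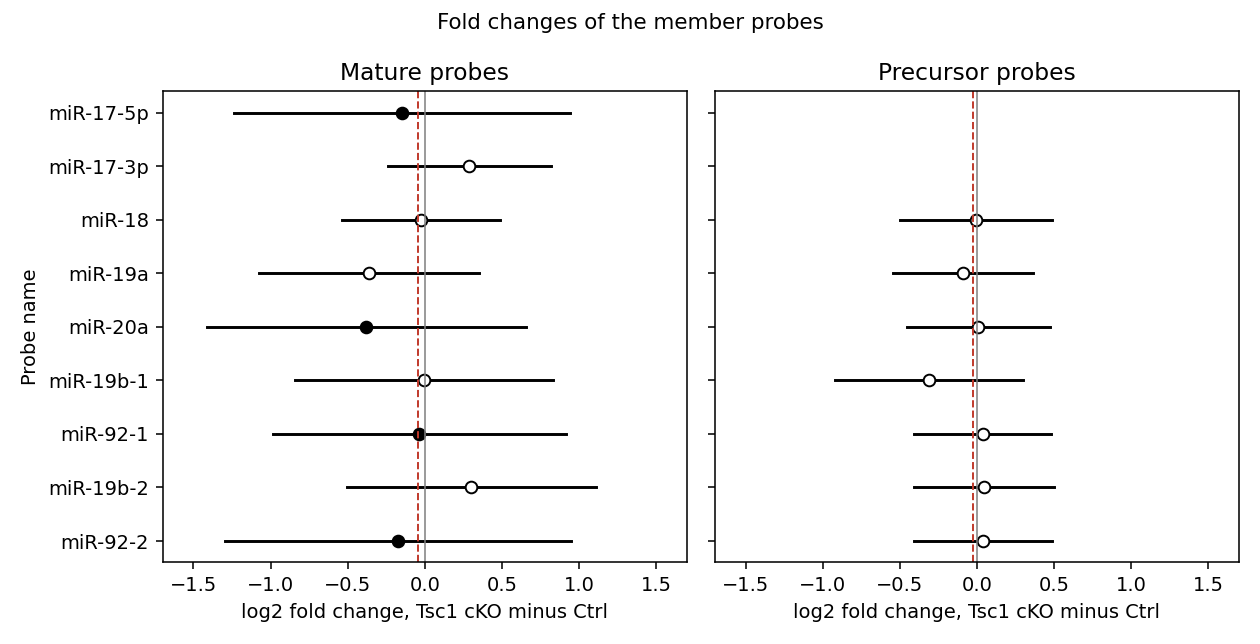
Log2 fold changes, Tsc1 cKO minus Ctrl (x axis), of the member names (y axis) for mature (left) and precursor probes (right). Points are limma estimates from 4 against 4 mice (filled where the name was bright, open where it lay at background), bars are 95% intervals, and the dashed line is the median of all names of the table. Each interval includes 0.

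The sign of these fold changes rested on single arrays and on the sets. Without Tsc1 cKO 4 the log2 fold changes were 0.30 for miR-17-5p, 0.01 for miR-20a, 0.31 for miR-92-1 and 0.30 for miR-92-2, all above 0. On arrays 1 and 2 alone they were 0.21, -0.11, 0.38 and 0.50, and on arrays 3 and 4 alone -0.51, -0.65, -0.45 and -0.85, in the same order of names. Without Ctrl 2, miR-17-5p (0.12) and miR-92-1 (0.19) turned above 0, as did miR-92-1 without Tsc1 cKO 3. Set against the median of the 96 bright mature names on each array, they were 0.22 for miR-17-5p, -0.02 for miR-20a, 0.33 for miR-92-1 and 0.19 for miR-92-2. None of these values passed the threshold.

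The bright members were high and low on the same arrays. The mean of their log2 intensities, centred on its own mean, was 0.52, 0.86, -0.41 and -1.34 in Tsc1 cKO mice 1 to 4, against 0.18, 0.70, 0.06 and -0.58 in Ctrl mice 1 to 4. Arrays 2 were the highest and arrays 4 the lowest of both groups. Each of the 4 members is itself part of this mean profile, which lowers its distance from it. The root mean square differences over the 8 arrays were 0.109 (miR-17-5p), 0.148 (miR-92-1), 0.148 (miR-92-2) and 0.191 log2 units (miR-20a). The median of the 96 bright names showed part of the same pattern: over background it was 1.57 on Tsc1 cKO 4, against 2.24 to 2.81 on the other 7 arrays. The share of array-wide brightness in the profile of the members was not tested.

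**Figure D3:**
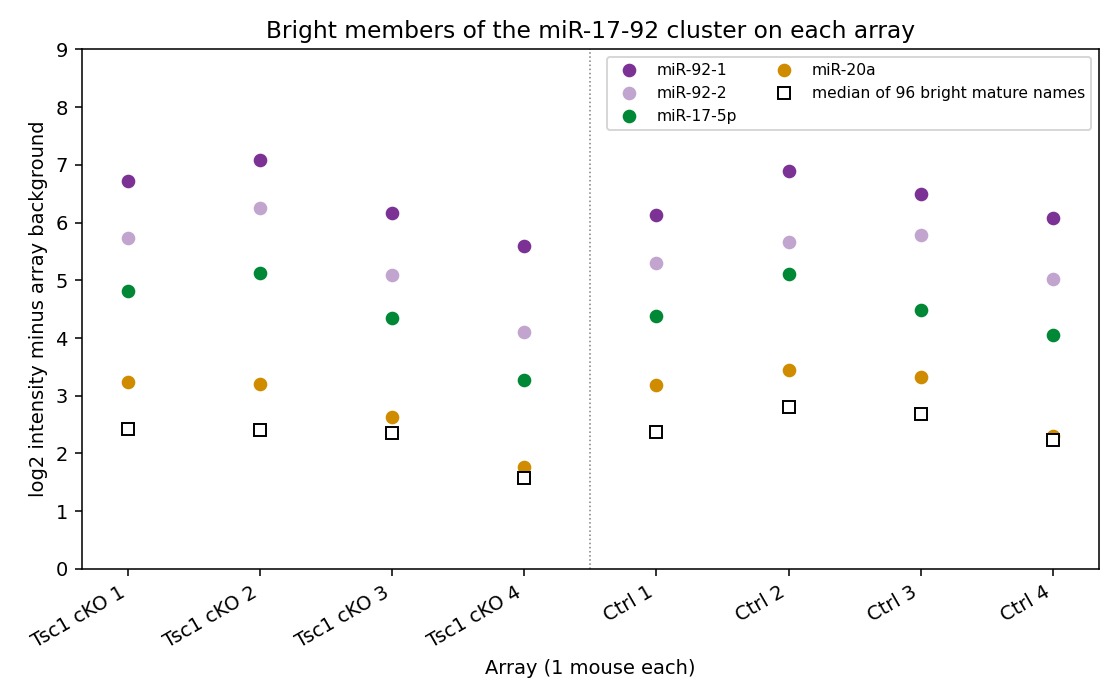
Log2 intensity minus array background (y axis) of the 4 bright members on each of the 8 arrays (x axis, 1 mouse each, Tsc1 cKO left of the dotted line, Ctrl right). Open squares are the median of the 96 bright mature names. All 4 members have their lowest value on Tsc1 cKO 4, where the squares are lowest too.

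Outside the cluster and its paralogues, the 5 bright mature names with the most similar profile were miR-30c-2 (root mean square difference of 0.132 log2 units over the 8 arrays), miR-21 (0.14), miR-107 (0.148), miR-16-2 (0.150) and miR-26b (0.157). The median over the 87 names compared was 0.440. These names thus lay about as close to the mean profile as the members did to it. Their log2 fold changes were -0.11, -0.41, -0.24, -0.14 and -0.41 in the same order, and none passed the test.

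miR-92-1 and miR-92-2 are named for genomic copies on chromosomes 14 and X that yield 1 mature sequence, and so are miR-19b-1 and miR-19b-2. The hairpins are shown, with the mature sequence in capitals, since the copies differ only outside the capitals.
Mir92-1: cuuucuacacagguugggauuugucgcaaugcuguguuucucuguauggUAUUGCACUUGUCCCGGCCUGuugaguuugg
Mir92-2: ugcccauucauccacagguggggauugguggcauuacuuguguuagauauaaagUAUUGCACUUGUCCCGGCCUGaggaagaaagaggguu
Mir19b-1: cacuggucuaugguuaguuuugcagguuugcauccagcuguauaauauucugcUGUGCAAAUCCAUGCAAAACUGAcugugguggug
Mir19b-2: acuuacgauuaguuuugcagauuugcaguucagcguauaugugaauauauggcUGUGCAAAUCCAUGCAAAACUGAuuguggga
The longest run that the miR-92a hairpins share is 22 bases, 1 more than the mature miRNA, and that of the miR-19b hairpins is 25 bases, against a mature length of 23. Probe sequences were not used here, so how much of each hairpin a probe covers is not known.

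The probes named for both miR-92a copies, which yield 1 mature sequence, moved in step, like the bright members as a set. The log2 intensity of miR-92-1 minus that of miR-92-2 on the same array was 0.98, 0.83, 1.07 and 1.49 in Tsc1 cKO mice 1 to 4, against 0.83, 1.23, 0.71 and 1.05 in Ctrl mice 1 to 4. The widest gap was on Tsc1 cKO 4, and the groups overlapped. The difference between groups was 0.14 (1.09 ± 0.28 in Tsc1 cKO and 0.95 ± 0.23 in Ctrl mice, SD, n = 4 each, 2-sided exact permutation p = 0.486). A difference of this kind removes any factor that scales a whole array. The gap itself compares different probes and gives no ratio of the copies. As the mature sequence is the same, the shared movement does not show how either copy behaved. Such movement was not particular to these copies, as bright members of different mature sequence differed by similar SDs. For miR-17-5p minus miR-92-1 the SD was 0.221 in Tsc1 cKO and 0.145 in Ctrl mice. For miR-20a minus miR-92-2 it was 0.325 and 0.273.

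For miR-19b, a member known for its part in lymphoma in mouse, the copies lay at background. miR-19b-1 minus miR-19b-2 was -0.66, -0.60, -0.18 and -0.27 in Tsc1 cKO mice 1 to 4, against 0.20, -0.16, -0.50 and -0.03 in Ctrl mice 1 to 4 (difference of -0.31, exact permutation p = 0.143). The groups overlapped through Ctrl 3 alone. Of the 3 pairs of probes from 1 stem, 0 passed after Benjamini-Hochberg adjustment (the lowest was 0.429, and 0 pairs had an unadjusted p under 0.05), and the smallest p that 4 against 4 mice allow is 0.0286.

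Between bright members the 5 other pairs were compared the same way, a choice made after the data were seen. miR-20a and miR-92-1 lay at the ends of the range. miR-20a minus miR-92-1 was -3.48, -3.90, -3.53 and -3.82 in Tsc1 cKO mice 1 to 4, against -2.94, -3.46, -3.17 and -3.78 in Ctrl mice 1 to 4, a difference of -0.35 (exact permutation p = 0.114). 3 of the 4 Ctrl mice lay above all 4 Tsc1 cKO mice, while Ctrl 4 lay within their range. Without Ctrl 4 the groups did not overlap (difference of -0.49, permutation p adjusted over the 5 pairs = 0.143). As Ctrl 4 was the 1 mouse that overlapped, this separation follows from its omission. miR-17-5p minus miR-20a, which share a seed, differed by 0.23 between groups (1.68 ± 0.19 in Tsc1 cKO and 1.45 ± 0.32 in Ctrl mice, SD, n = 4 each, exact permutation p = 0.286). None of the 5 pairs passed after adjustment (lowest adjusted p = 0.571).

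**Figure D4:**
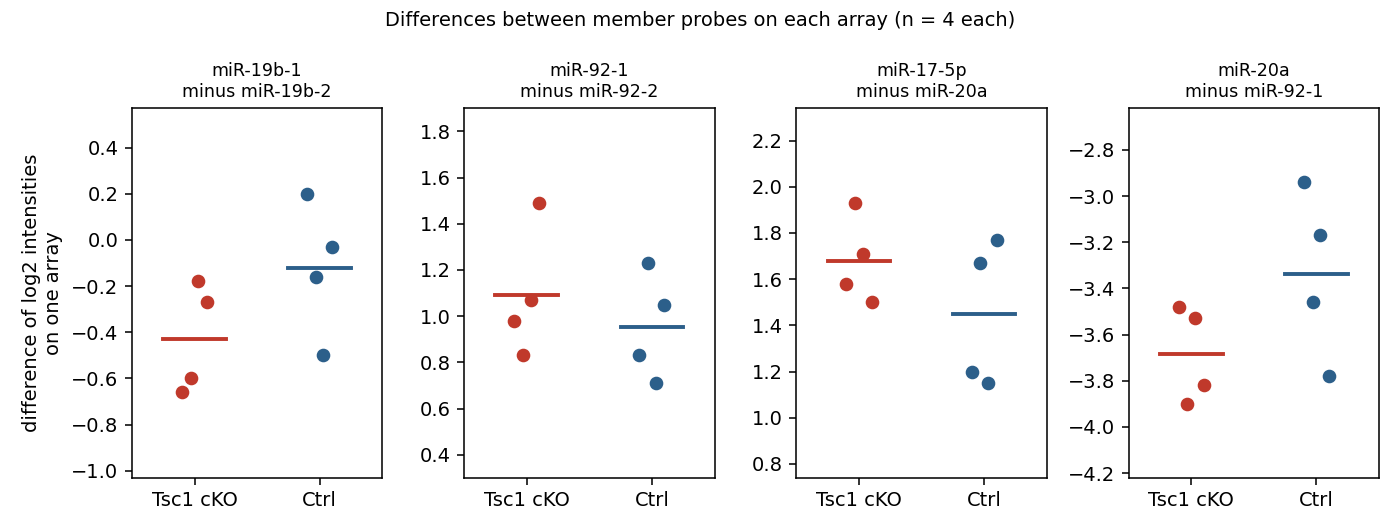
Difference of the log2 intensities of 2 member probes on the same array (y axis, each panel spans 1.6 log2 units) in Tsc1 cKO (red, left) and Ctrl mice (blue, right), for the miR-19b copies, the miR-92a copies, miR-17-5p minus miR-20a, and miR-20a minus miR-92-1. Points are mice (n = 4 each) and bars are means. The groups overlap in each panel.

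The 2 arms of miR-17 parted in signal. While miR-17-5p was bright, the distance of the other arm, miR-17-3p, from background was 0.27, -0.14, 0.12 and 0.08 log2 units in Tsc1 cKO mice 1 to 4, against -0.63, -0.02, -0.41 and 0.11 in Ctrl mice 1 to 4. Its 3 probes disagreed. Probe 1 read 39971, 38410, 29809 and 26272 in Tsc1 cKO mice 1 to 4, against 11025.5, 21493.5, 15806.5 and 27385.5 in Ctrl mice 1 to 4. Alone it gave a log2 fold change of 0.89, and its values in 3 of the 4 Ctrl mice lay below all 4 of Tsc1 cKO. Probe 2, with 15408 on Ctrl 3, gave 0.17 and probe 3 gave -0.19. The SD of the 3 probes on an array reached 0.855 log2 units, against at most 0.086 for miR-17-5p, so the log2 fold change of their mean, 0.29 (SE 0.24), turns on which probe is read. As miR-17-3p lay at background, its difference from miR-17-5p between groups, 0.44 (exact permutation p = 0.429), holds no measure of the balance of arms.

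The members at background showed no pattern shared by a group. miR-18 kept within 0.12 log2 units of background on every array, and its log2 fold change was -0.03 (SE 0.23). miR-19a had 0.19, -1.39, 0.24 and 0.21 in Tsc1 cKO mice 1 to 4, against 0.24, -0.20, 0.17 and 0.39 in Ctrl mice 1 to 4. Its log2 fold change of -0.36 (SE 0.32) rests on Tsc1 cKO 2, without which it was -0.04. miR-19b-1 (-0.0028, SE 0.38) and miR-19b-2 (0.30, SE 0.36) were both highest on Tsc1 cKO 2, at 0.58 and 1.18 above background, and both lowest on Ctrl 3, at -0.83 and -0.33. For these 5 names a fold change near 0 reads background and says little on the miRNA.

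Precursor probes were compared to ask whether the hairpins of the cluster changed. All 7 lay at background: the highest of their 56 values was 0.15 log2 units above it. The precursors of the bright members were among them. For miR-92-1 the precursor probe stood at -0.03, 0.06, -0.03 and 0.05 log2 units relative to background in Tsc1 cKO mice 1 to 4, against -0.07, -0.03, -0.02 and -0.10 in Ctrl mice 1 to 4, where the mature probe stood above 5 on all 8 arrays. That of miR-20a lay between -0.06 and 0.00 in Tsc1 cKO mice, against -0.13 to 0.02 in Ctrl mice. The most negative precursor value, -0.95 for miR-19b-1 on Tsc1 cKO 3, gave that name the lowest log2 fold change of the 7, -0.31 (SE 0.28), and without this mouse it was -0.04. The other 6 were between -0.09 and 0.04 (SE 0.20 to 0.22).

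limma called 0 of the 7 precursor members, as it called 0% of the 274 names at an adjusted p under 0.05. At unadjusted p under 0.05 it gave 0 of the 7, with 2.55% over all names, and the groups overlapped for all 7, with 1.09% not overlapping over all names. Of the 7 members 3 were below 0, against 59.1% of all names. miR-19a repeated on its precursor probe the pattern of its mature probe: the lowest value of each group was on array 2 in both tables, at -1.39 and -0.20 for the mature and -0.47 and -0.33 for the precursor probe in Tsc1 cKO 2 and Ctrl 2. Whether both probes read the same RNA was not tested.

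The balance of both forms was tested on the difference of mature and precursor log2 values of the same array, over 263 matched names. For miR-92-1 this difference was 6.38 in Tsc1 cKO and 6.45 in Ctrl mice on average, for miR-92-2 it was 5.28 and 5.49, and for miR-20a 2.74 and 3.13. The between-group values were -0.07 (SE 0.34), -0.22 (SE 0.43) and -0.39 (SE 0.37), close to those of the mature probes alone. The precursor probes differed little between groups, with log2 fold changes of 0.04, 0.04 and 0.01 in the same order. By limma 0 of the 7 matched members (lowest adjusted p = 0.866) and 0% of all names were called. At unadjusted p under 0.05 it gave 0 of the 7, with 6.46% over all names. The groups overlapped for all 7, with 4.94% not overlapping over all names, and 5 of the 7 were below 0, against 52.9% of all names. Since the precursor side reads background, these values hold no measure of how fast hairpins were cut.

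The paralogue clusters are miR-106a-363 on the X chromosome and miR-106b-25 within the gene Mcm7. Their 6 names compared here carry the seed of miR-17-5p or that of miR-92a-3p, and the sequences show how near they are to the members.
miR-106a-5p: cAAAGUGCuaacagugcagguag
miR-20b-5p: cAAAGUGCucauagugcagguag
miR-93-5p: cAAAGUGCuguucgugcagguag
miR-106b-5p: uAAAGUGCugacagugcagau
miR-25-3p: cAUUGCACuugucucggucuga
miR-363-3p: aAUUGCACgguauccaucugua
miR-106a-5p differs from miR-17-5p by U10A alone, and miR-20b-5p by U10C and C12U. Of these 6 names 5 were bright, all but miR-363. All 4 paralogues with the miR-17 seed were bright, like both members that carry it. In the miR-92a seed family miR-25 was bright.

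Paralogue levels overlapped between groups in the same way. miR-106a stood 2.84, 3.25, 2.67 and 1.56 log2 units above background in Tsc1 cKO mice 1 to 4, against 2.51, 3.01, 2.60 and 2.33 in Ctrl mice 1 to 4, with a log2 fold change of -0.06 (SE 0.43). Tsc1 cKO 4 was the lowest array, as for miR-17-5p. The log2 fold changes of the other bright paralogues were -0.21 for miR-20b (SE 0.41), -0.15 for miR-106b (SE 0.42), -0.39 for miR-93 (SE 0.43) and -0.02 for miR-25 (SE 0.56). Their median with miR-363 was -0.11 over 6 names, against -0.03 over the 9 members, and none passed the test. With mature sequences as close as these, signal shared between probes of a seed family was not tested.

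**Figure D5:**
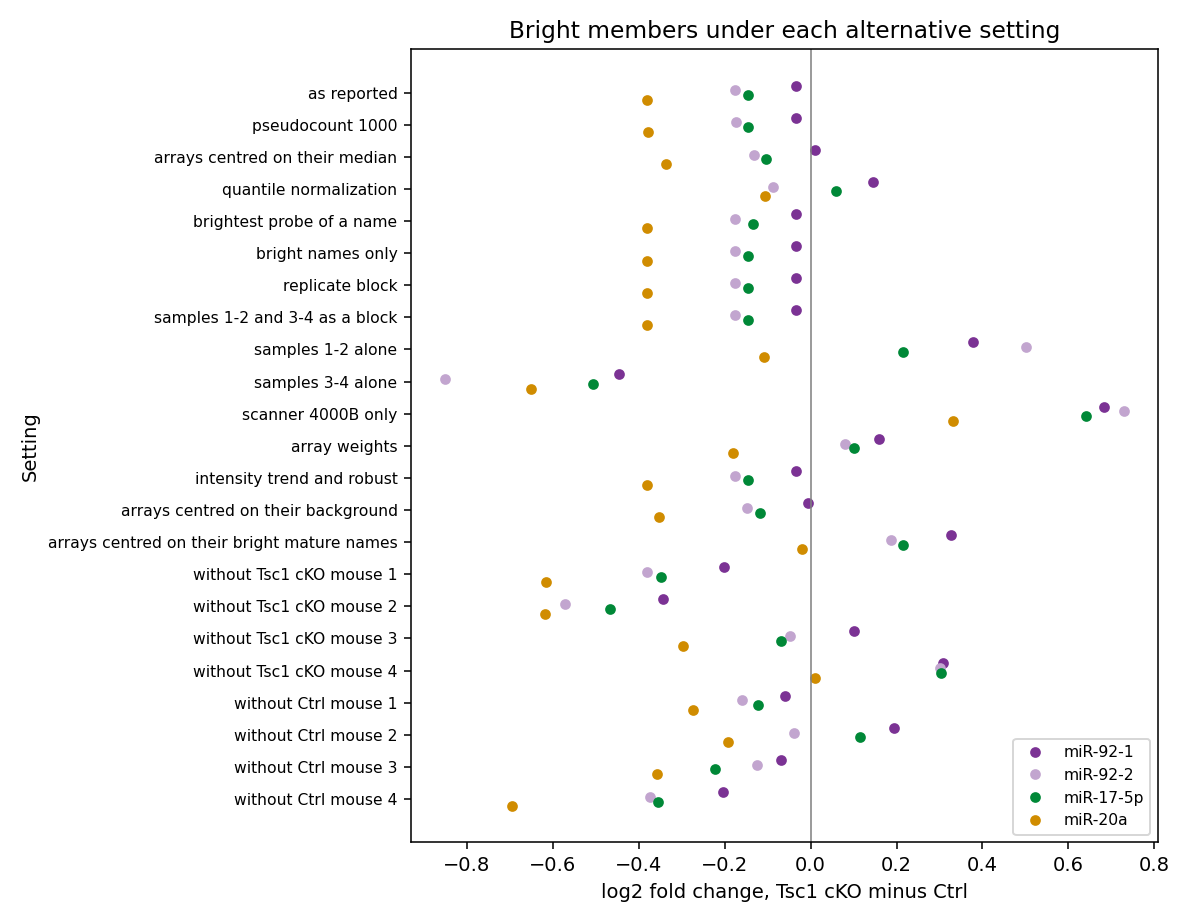
Log2 fold change, Tsc1 cKO minus Ctrl (x axis), of the 4 bright members under each setting of the analysis (y axis, as reported at the top). The values lie on both sides of 0. They are highest on the 6 arrays labelled with scanner 4000B, where the groups differ in array background, and, for all but miR-20a, lowest on arrays 3 and 4 alone.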

How the data were processed

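miRNAs were measured on 1-colour arrays, 1 per mouse. Per the labels' protocols, the authors labelled 5 µg of TRIzol-extracted total RNA with a biotinylated random octamer primer and detected it with streptavidin-Alexa647. The deposited values are intensities on a linear scale, one table for mature and one for precursor probes. The file headers, a template text, call them normalized (scaled) signal, and the sources used here do not give the method. A further table equals the mature one in every cell.

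Values were taken as log2(value + 1), and probes of 1 name were averaged. Fold changes came from limma 3.58.1 (R 4.3.3, lmFit and eBayes, no block), fitted over each whole table. Probe pairs were compared with exact permutation tests over all 70 assignments. The limma fit was tested on simulated data, and the permutation test on a set of values with a known answer. The number of arrays limits the precision.

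Every member name is reported; values per array are given for bright names and those that decide a statement. Members, lists and tests were chosen with earlier results of these data known. Deviations of same-numbered samples from the group means correlated at 0.093 to 0.348, 1 pair under the 0.1 asked of every pair, so the numbers were not taken as pairs. Alternatives covered the pseudocount, scaling, probe choice, filter, blocks, array sets, scanner, weights and omission of each mouse. Figures used Python 3.11.15 and matplotlib 3.10.9.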

Additional observations from a re-analysis of the deposited data

How the results depend on the processing

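No alternative called any name at adjusted p under 0.05 by limma in the mature, precursor or difference table, nor any pair of probes. Unadjusted p under 0.05 was given to 19 mature names as reported and to 16 to 48 under the alternatives, or to 8 where only bright names were tested. With the replicate number as a block it was 48 mature names and 0 calls, with a lowest adjusted p of 0.0581. The block left the fold change of miR-20a at -0.38 with an SE of 0.15, against 0.46 as reported (limma adjusted p = 0.45 with the block). For the pairs of 1 stem the replicate block gave 0 calls (lowest adjusted p = 0.5, in a design that cannot go below 0.125 unadjusted), and 5 of 8 samples correlated best with their own number. The fold changes of bright members, none of them called, changed sign as follows, and the cause was not tested. miR-92-1 had 0.009 with arrays centred on their median. Quantile normalization gave 0.058 for miR-17-5p, 0.14 for miR-92-1 and 0.077 for the difference of the miR-92-1 forms. Arrays 1 and 2 alone gave 0.21 for miR-17-5p, 0.38 for miR-92-1 and 0.50 for miR-92-2, and 0.33 and 0.38 for the difference of forms of miR-92-1 and miR-92-2. The arrays labelled scanner 4000B alone, where array background and group mix, gave 0.64 for miR-17-5p, 0.33 for miR-20a, 0.68 for miR-92-1 and 0.73 for miR-92-2 (limma adjusted p = 0.682), and 0.10, 0.44 and 0.45 for the difference of forms of miR-20a, miR-92-1 and miR-92-2. Array weights, whose estimation stopped short of convergence, gave 0.10 for miR-17-5p, 0.16 for miR-92-1, 0.079 for miR-92-2 and 0.061 for the difference of the miR-92-1 forms. Centring on bright mature names, chosen after seeing the data, gave 0.22, 0.33 and 0.19 for miR-17-5p, miR-92-1 and miR-92-2, and 0.29 and 0.15 for the difference of forms of the last 2. Unadjusted limma p fell under 0.05 for 3 members under an alternative, miR-92-2 on the scanner 4000B arrays, and miR-17-3p (0.65) and miR-19b-2 (0.66) with centring on bright mature names (adjusted p = 0.517 for both). Omission of 1 mouse gave -0.47 to 0.30 for miR-17-5p, -0.70 to 0.01 for miR-20a, -0.34 to 0.31 for miR-92-1 and -0.57 to 0.30 for miR-92-2. For the difference of forms it gave -0.29 to 0.21 for miR-92-1 and -0.53 to 0.16 for miR-92-2. Signal over background limits what the 5 mature members at background and all 7 precursor members can show.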
